A study of Mus musculus with 13 samples.

Results

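The members of a list of 10 circadian clock genes were followed in RNA of whole mouse esophagus: Clock, Npas2, Per1, Per2, Per3, Cry1, Cry2, Nr1d1, Nr1d2 and Dbp. The members were taken by symbol from a list, which was chosen with earlier results of these data known. All 10 of 10 were found among the 20054 genes of the table. The comparison set 6 libraries of wild-type C57/BL6 mice (WT) against 7 libraries of dblGATA mice (Jackson strain), and asked how a carcinogen-treated esophagus differs between them. Mice of both genotypes had received 4-nitroquinoline 1-oxide (4-NQO), a carcinogen of the upper digestive tract, for 8 weeks and then propylene glycol, its vehicle, for 8 weeks, a stage labelled pre-cancer. No library came from an untreated animal. The dblGATA allele removes a GATA site in the regulatory region of Gata1 in every cell of the animal and leaves the mice short of eosinophils. The genetic background of the dblGATA strain is not given here, and a difference of background from WT could not be told apart from the allele. The labels give neither the hour of tissue collection nor the sex of the animals, and it is not stated whether 1 library stands for 1 animal. P-values therefore weigh a difference, slope or correlation against the scatter between these libraries, and part of that scatter may be technical.

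The clock is a feedback loop that runs in nearly every mammalian cell, the esophageal epithelium included. CLOCK, or its relative NPAS2, pairs with BMAL1 (gene Arntl) and switches on genes that carry an E-box, among them the Per, Cry, Nr1d and Dbp genes. PER and CRY proteins then block the pair that made them, and the NR1D receptors (REV-ERB) shut down Arntl, Npas2, Clock and Cry1 through another element. As a result the mRNAs of Dbp and Nr1d1 peak around the time of day at which those of Arntl and Npas2 are lowest in mouse peripheral tissues.

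The promoters of 4 members are shown because they carry the clock elements searched for near members that moved with or against Dbp across libraries, or, for Per1, that did not. Each is the RefSeq window (build GRCm38.p6) from 250 bases before to 50 bases after the start of the gene, 5′ to 3′ in the direction of transcription. Capitals mark an E-box (CACGTG), the E-box variant (CACGTT, written AACGTG when it lies on the other strand) or a D-box, the element of DBP, TEF and HLF (TTATGTAA or TTACGTAA).
Per3 promoter, chr4:151044616-151044915, minus strand: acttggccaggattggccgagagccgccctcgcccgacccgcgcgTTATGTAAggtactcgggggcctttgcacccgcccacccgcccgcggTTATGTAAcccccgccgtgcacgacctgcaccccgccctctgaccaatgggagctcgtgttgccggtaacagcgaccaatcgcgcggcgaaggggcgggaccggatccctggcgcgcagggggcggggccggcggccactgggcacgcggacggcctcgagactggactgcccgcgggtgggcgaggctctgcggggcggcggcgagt
Cry1 promoter, chr10:85185005-85185304, minus strand: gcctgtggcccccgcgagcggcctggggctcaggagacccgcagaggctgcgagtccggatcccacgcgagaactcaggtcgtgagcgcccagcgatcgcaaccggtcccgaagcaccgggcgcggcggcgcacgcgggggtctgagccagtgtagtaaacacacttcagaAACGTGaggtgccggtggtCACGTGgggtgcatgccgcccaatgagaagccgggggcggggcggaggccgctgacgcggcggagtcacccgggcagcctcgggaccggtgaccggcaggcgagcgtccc
Nr1d1 promoter, chr11:98775328-98775627, minus strand: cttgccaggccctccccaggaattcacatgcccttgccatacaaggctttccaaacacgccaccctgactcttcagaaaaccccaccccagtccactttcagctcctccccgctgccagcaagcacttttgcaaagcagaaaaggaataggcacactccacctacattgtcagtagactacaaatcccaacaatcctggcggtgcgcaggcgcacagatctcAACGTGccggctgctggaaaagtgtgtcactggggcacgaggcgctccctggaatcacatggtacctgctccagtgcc
Per1 promoter, chr11:69098699-69098998, plus strand: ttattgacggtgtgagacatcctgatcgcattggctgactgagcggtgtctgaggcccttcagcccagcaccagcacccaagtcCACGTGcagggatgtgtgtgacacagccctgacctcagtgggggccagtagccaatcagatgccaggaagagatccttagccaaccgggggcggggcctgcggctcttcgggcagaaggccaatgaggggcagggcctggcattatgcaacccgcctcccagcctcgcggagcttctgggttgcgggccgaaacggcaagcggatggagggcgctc
Both strands were searched, and no element found in a member overlapped another. Windows existed for 9 of the 10 members, with 12 windows in all. An E-box lay in 2 members, Cry1 (60 bases before the start) and Per1 (166 bases before it, in 1 of its windows), against 7.15% of all 32851 windows. The variant lay in 3 members, Cry1 (79 bases before the start), Cry2 (166 bases before) and Nr1d1 (28 bases before), against 4.68% of windows. The D-box lay in Per3 alone among these members, in 2 copies that begin 205 and 158 bases before the start, against 1.06% of windows. The core of the element bound by ROR and NR1D receptors (TAGGTCA or TGGGTCA) lay in 0 members and in 6.45% of windows. The counts are per member and the percentages per window, and some members had more than 1 window, so they are not in the same unit. The window of Cry2, which also carried the variant, is not shown. A match is a description of these letters in this window only.

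The samples carried the RNAs of esophagus. Krt13, the keratin of its differentiating epithelium, ranged from 12710 to 33900 CPM, the counts scaled to a common library total after TMM normalization, and Acta1, the actin of skeletal muscle, from 5753 to 16130 CPM. Libraries held between 66339087 and 98195869 counts, so that 3 counts were worth at most 0.0526 CPM, far below every value of a member. As checks of the genotype, Ccr3, the eotaxin receptor of eosinophils, fell from a mean of 0.681 ± 0.338 CPM (SD, n = 6) in WT to 0.139 ± 0.116 CPM (SD, n = 7) in dblGATA (edgeR adjusted p = 0.0179), while Gata1 itself was too low to be tested. For Ccr3 the genotypes overlapped, with dblGATA 6 at 0.387 CPM above WT 4 and WT 5 (0.380 and 0.251 CPM). In dblGATA 3 Ccr3 was at 0.0244 CPM, under the 0.0366 CPM that 3 counts were worth there. A pair of WT libraries stood apart by the ribosomal RNA Rn18s, which took 10.1% of the counts of WT 4 and 16.9% of those of WT 6 and at most 3.24% elsewhere. WT 1 to WT 4, dblGATA 6 and dblGATA 7 held at least 4.39 CPM of the Y-linked Ddx3y together with at least 48.9 CPM of Xist.

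All 10 members passed the filter on low counts. Per length of their exons, Nr1d1 was the most abundant, with a median of 32.2 CPM per kb over the 13 libraries (13 to 42.1). Nr1d2 followed with 13.6 (7.34 to 18.0), Dbp with 11.9 (2.96 to 23.4) and Clock with 9.28 (7.47 to 12.1 CPM per kb). The cryptochrome genes came next, Cry2 at a median of 6.86 and Cry1 at 4.92 CPM per kb. Per1 had a median of 3.60, Npas2 of 2.85, Per3 of 1.68 and Per2 of 1.27 CPM per kb. The ranges of each gene and its neighbour in this order overlapped. The Clock partner gene Arntl was measured at a median of 4.72 CPM per kb, above Npas2 and below Clock.

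None of the 10 clock genes passed the test of dblGATA against WT esophagus. Clock, Npas2 and Cry1 had levels on average somewhat higher in dblGATA and Cry2, Nr1d1, Nr1d2, Per2, Per3 and Dbp somewhat lower, but for every member the 2 genotypes overlapped and 0 passed the threshold in either direction, with edgeR as with DESeq2 and limma-voom. Over all 16599 tested genes, 7.10% were called higher and 6.39% lower in dblGATA (edgeR adjusted p under 0.05). Without adjustment, 1 member was higher (Npas2) and 1 lower (Cry2) at an edgeR p under 0.05, beside 5371 of the 16599 genes in either direction. The median log2 fold change of the members was -0.26 (4 positive and 6 negative), beside -0.00244 over all tested genes.

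**Figure D1:**
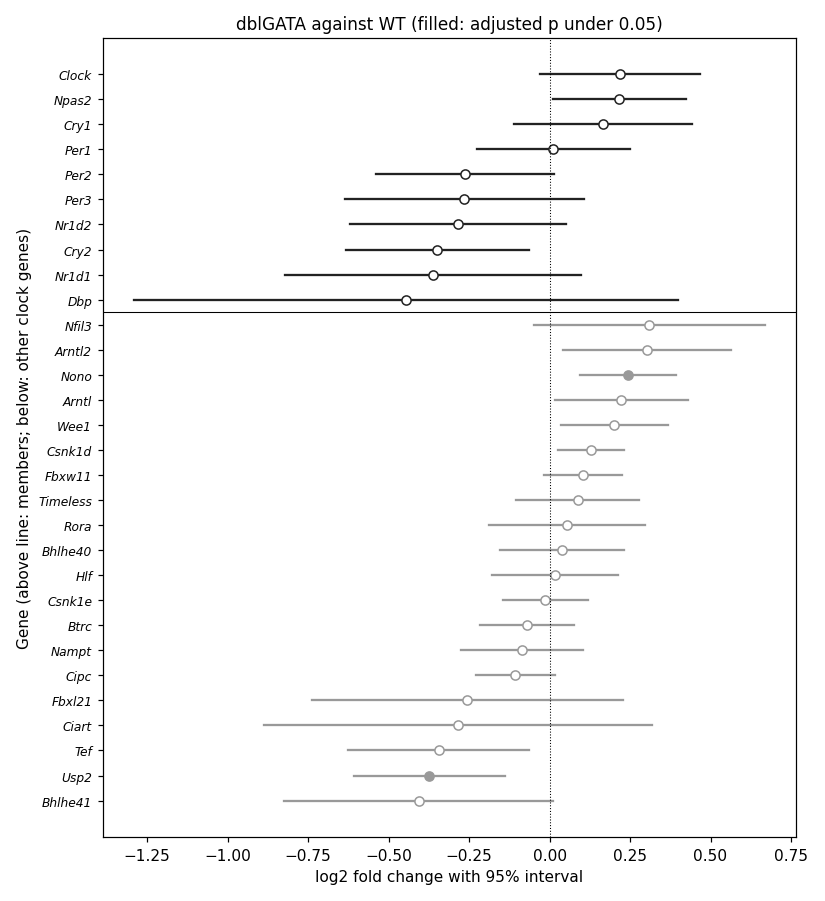
Log2 fold change of dblGATA against WT with its 95% interval (x axis) for the 10 members and 20 other clock genes (y axis, separated by the line), with filled points for an edgeR adjusted p under 0.05. All member points are open, Dbp has the widest interval (-1.29 to 0.40), and the filled points are Nono and Usp2.

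Of the activators, Clock ran from 102.5 to 167 CPM in WT (median 112) and from 117 to 165 CPM in dblGATA (median 135). WT 2 held the highest value of all, above every dblGATA library, while the other 5 WT libraries stayed at or below 123 CPM. The means were 120 ± 24.1 CPM (SD, n = 6) and 140 ± 17.4 CPM (SD, n = 7), a log2 change of 0.22 with an SE of 0.12 (edgeR adjusted p = 0.205). Without WT 2 it was 0.33, with an edgeR adjusted p of 0.0203. In that fit 1928 of all 16696 tested genes were called higher. Npas2, which can take the place of Clock in the pair with BMAL1, ran from 10.1 to 13.9 CPM in WT (median 13.2) and from 12.6 to 17.04 CPM in dblGATA (median 15.3). The 4 dblGATA libraries 2 to 5 lay above all WT libraries, and WT 6 lay below all others. The log2 change of Npas2 was 0.22 with an SE of 0.0967 (edgeR adjusted p = 0.137).

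The period genes encode the repressors that carry the CRY proteins back to the nucleus. Per1, also an early response gene to many stimuli, ran from 18.5 to 21.4 CPM in WT (median 19.8) and from 15.6 to 26.9 CPM in dblGATA (median 20.4). The WT libraries were tightly grouped and dblGATA 1, at 26.9 CPM, was the highest. Its log2 change of 0.01 with an SE of 0.11 (edgeR adjusted p = 0.953) had a 95% interval from -0.23 to 0.25, and its sign turned with the scaling of the libraries. Per2 ran from 6.99 to 9.93 CPM in WT (median 8.27) and from 5 to 9.32 CPM in dblGATA (median 7.04). Its lowest value was that of dblGATA 2, and the log2 fold change was -0.26 ± 0.13 (SE, edgeR adjusted p = 0.174). Per3 ran from 15.2 to 26.5 CPM in WT (median 16.8) and from 9.54 to 21.6 CPM in dblGATA (median 16.1). WT 6 stood above all other libraries and dblGATA 5, 4 and 2 below all WT ones, and the log2 fold change was -0.27 ± 0.17 (SE, edgeR adjusted p = 0.304).

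The cryptochromes, the main repressors of the CLOCK and BMAL1 pair, leaned in opposite directions. Cry1 ran from 13.6 to 19.2 CPM in WT (median 16.4) and from 14.96 to 25.4 CPM in dblGATA (median 17.01), a log2 change of 0.17 with an SE of 0.13 (edgeR adjusted p = 0.393). Its highest values were in dblGATA 5, 3 and 4, above all WT libraries. Cry2 ran from 38.0 to 59.7 CPM in WT (median 51.3) and from 27.5 to 53.6 CPM in dblGATA (median 39.2). It came nearest to the threshold of the 10 members, at 50.7 ± 7.30 CPM (SD, n = 6) and 39.8 ± 8.16 CPM (SD, n = 7), a log2 change of -0.35 with an SE of 0.133 (edgeR adjusted p = 0.0883). WT 6 and WT 1 lay above all dblGATA libraries, and WT 2 lay among the dblGATA ones. Without WT 2 its edgeR adjusted p was 0.0332, and without dblGATA 1, the highest of that genotype, it was 0.0266. Of all tested genes, 1900 of 16696 were called lower without WT 2 and 1411 of 16517 without dblGATA 1. The authors' deposited table gave Cry2 a log2 fold change of -0.37 with an adjusted p of 0.0533, and no member an adjusted p under 0.05.

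Nr1d1 and Nr1d2 encode the REV-ERB repressors, and Dbp encodes a transcription factor that carries the rhythm to output genes. Nr1d1 ran from 61.1 to 130 CPM in WT (median 106) and from 39.9 to 108 CPM in dblGATA (median 90.5), a log2 change of -0.36 with an SE of 0.21 (edgeR adjusted p = 0.259). WT 2 held the lowest WT value, and the other 5 WT libraries lay at or above 99.0 CPM. Nr1d2 ran from 59.9 to 97.5 CPM in WT (median 76.3) and from 39.7 to 79.4 CPM in dblGATA (median 59.7), a log2 change of -0.28 with an SE of 0.16 (edgeR adjusted p = 0.224). Of the dblGATA libraries, 4 lay below all WT ones and the others lay among them. Dbp had the largest fold change in size and the largest error, with 39.2 ± 16.1 CPM (SD, n = 6) in WT and 28.8 ± 16.1 CPM (SD, n = 7) in dblGATA, a log2 change of -0.44 with an SE of 0.39 (edgeR adjusted p = 0.452). The 95% interval of that change ran from -1.29 to 0.40 and so left room for a change either way.

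**Figure D2:**
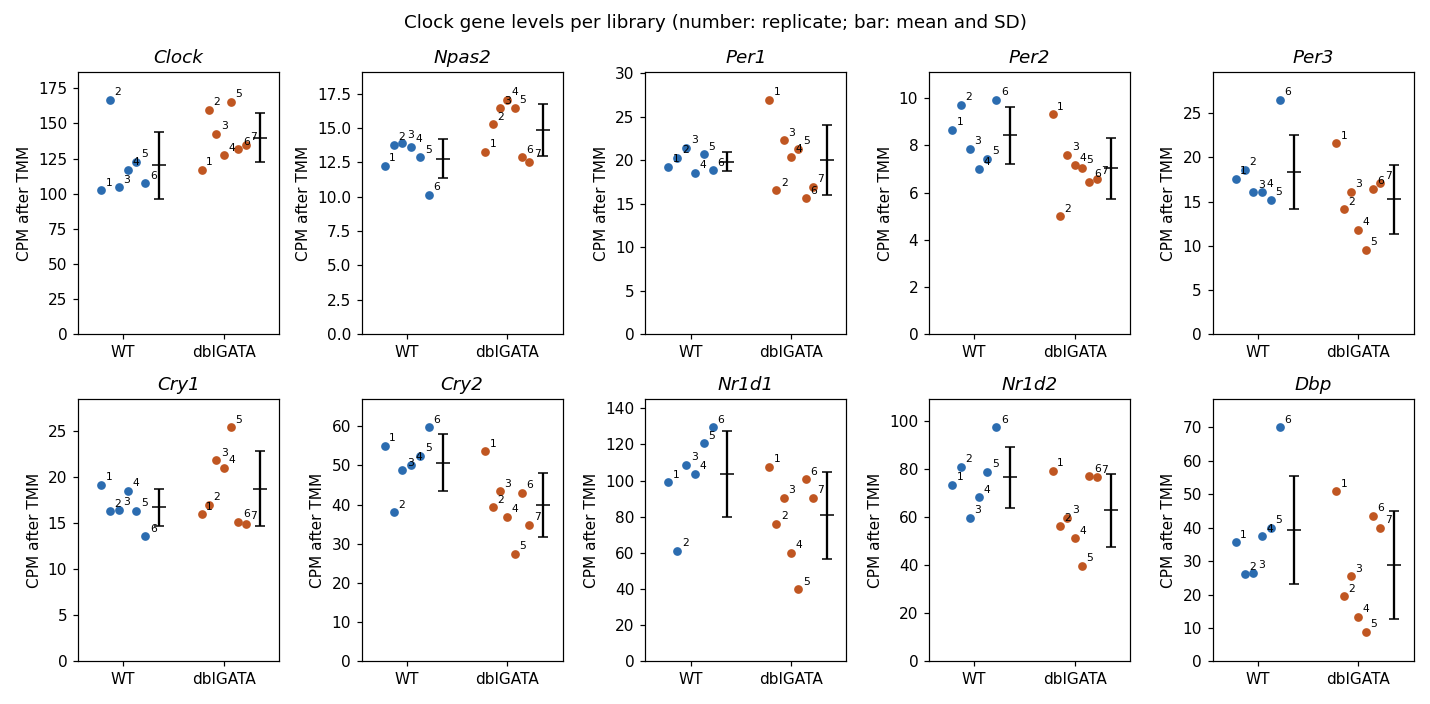
CPM after TMM scaling (y axis, from 0) of each of the 10 members in each WT and dblGATA library (x axis), with the replicate number beside each point and the mean with its SD as a bar. The 2 genotypes overlap for every gene, dblGATA 4 and 5 lie lowest for Dbp, and WT 6 lies highest for Dbp and Per3.

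Libraries of the same genotype differed widely in Dbp, and less in the other members. Dbp was lowest in dblGATA 5 at 8.86 CPM and in dblGATA 4 at 13.4 CPM, and then stood at 19.4 CPM in dblGATA 2 and 25.5 CPM in dblGATA 3. WT 2 and WT 3 held 26.01 and 26.49 CPM, WT 1 held 35.6 CPM, WT 4 held 37.4 CPM, and dblGATA 7 and WT 5 stood at 39.95 and 39.96 CPM. The order ended with dblGATA 6 at 43.5 CPM, dblGATA 1 at 50.9 CPM and WT 6 at 70.0 CPM. The highest library was thus 7.91-fold above the lowest, with dblGATA libraries at the bottom of the order and also next to its top. Nr1d1 spanned 3.25-fold, Per3 2.78-fold, Nr1d2 2.46-fold and Cry2 2.17-fold over the 13 libraries, while Per2, Cry1, Per1, Npas2 and Clock spanned 1.63-fold to 1.99-fold.

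Within genotypes, the SD of Dbp on the log2 scale was 0.78, larger than that of 94.5% of all tested genes, whose median SD was 0.196. The SD of Nr1d1 was 0.45 (above 83.8% of genes), that of Per3 was 0.35 (75.6%) and that of Nr1d2 was 0.32 (72.8%). Npas2 and Clock were near the median gene, with SDs of 0.18 and 0.22 (above 46% and 56.2% of genes). The SDs of Per1, Per2, Cry1 and Cry2 lay above those of 54.8%, 61.6%, 62.9% and 65.9% of genes. The spread of Dbp was 0.94 among dblGATA libraries and 0.52 among WT libraries, and that of Per1 was 0.28 and 0.0815 (log2 SD). Whether these spreads differ between the genotypes was not tested.

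**Figure D3:**
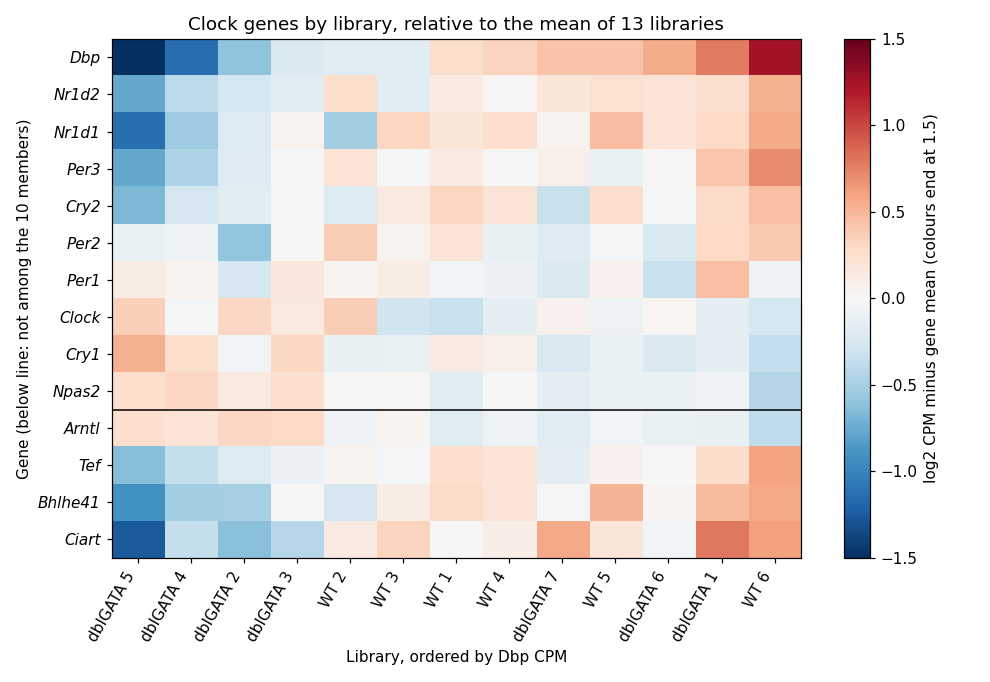
Each library (x axis, ordered by its Dbp level) and clock gene (y axis, with genes outside the 10 members under the line), coloured by log2 CPM minus the mean of that gene over 13 libraries, red for above and blue for below. From dblGATA 5 to WT 6, Nr1d2, Nr1d1, Per3, Cry2, Tef, Bhlhe41 and Ciart go from blue to red with Dbp, and Cry1, Npas2 and Arntl go from red to blue.

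Most members moved together in 2 opposed sets, and Per1 and Per2 belonged to neither. Dbp, Nr1d1, Nr1d2, Per3 and Cry2 were high in the same libraries, and Npas2 and Cry1 were high in the others. Clock leaned toward Npas2 and Cry1 but passed with neither (r = 0.571 and 0.351, adjusted permutation p = 0.0694 and 0.311). Among the members, Clock passed only as opposed to Cry2 and Nr1d1 (r = -0.805 and -0.753). Of 45 pairs of members, 22 were correlated across the 13 libraries at an adjusted p under 0.05 (Pearson on log2 CPM, permutation test with 100000 resamples, two-sided, adjusted over the 45 pairs), 11 positively and 11 negatively. All of these 22 had the same sign within WT and within dblGATA libraries, 15 also passed by Spearman, and 6 passed when the 2 libraries farthest from the median of the first gene were left out. Within dblGATA alone 7 pairs passed by exact permutation, and within WT alone 0 (3 at an unadjusted p under 0.05). With only 6 WT libraries, the smallest p of exact permutation is too large for a single pair to pass after adjustment over 45. These counts therefore do not compare the genotypes. The labels name no batch within which these relations could be repeated. How many pairs among other genes would pass was not counted, so 22 of 45 has no share over all genes beside it. Close relations were not limited to pairs of members. Clock had r = 0.967 with Acvr2a, which is no member, after the genotype means had been removed.

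Dbp and Nr1d2 were the most closely tied, with r = 0.939 (permutation p = 1e-05, the smallest that 100000 resamples can give, adjusted p = 0.00045) and rho = 0.835 (permutation p = 0.00076). Without dblGATA 4 and dblGATA 5, the libraries farthest from the median of Dbp, r was 0.843 (permutation p = 0.00113), and it was 0.734 within WT and 0.990 within dblGATA. Dbp and Per3 had r = 0.904 (permutation p = 7e-05, adjusted p = 0.00063) and rho = 0.714 (permutation p = 0.00832), with r = 0.753 without the same 2 libraries. Dbp and Nr1d1 had r = 0.894 (permutation p = 6e-05, adjusted p = 0.00063) and rho = 0.813 (permutation p = 0.0012). That relation rested in part on dblGATA 4 and 5, since without them r was 0.708 with an adjusted permutation p of 0.0568. Dbp and Cry2 had r = 0.796 (permutation p = 0.00085, adjusted p = 0.00341) and rho = 0.670 (permutation p = 0.0139), and without dblGATA 4 and 5 r was 0.58 and no longer passed (adjusted permutation p = 0.185).

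On the opposite side, Dbp and Npas2 had r = -0.873 (permutation p = 0.0001, adjusted p = 0.000707) and rho = -0.846 (permutation p = 0.00055). This relation held at r = -0.844 without dblGATA 4 and 5 (adjusted permutation p = 0.0211) and had r = -0.922 within WT and -0.861 within dblGATA. Dbp and Cry1 had r = -0.820 (permutation p = 0.00072, adjusted p = 0.00341) and rho = -0.819 (permutation p = 0.00103), and without dblGATA 4 and 5 r was -0.581 (adjusted permutation p = 0.185). Dbp and Clock had r = -0.596 and did not pass (permutation p = 0.0316, adjusted p = 0.0593, rho = -0.516 with permutation p = 0.0754). Per2, with r = 0.401 (adjusted permutation p = 0.236), and Per1, with r = -0.0899 (adjusted permutation p = 0.806), did not pass either.

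Pairs without Dbp were compared in the same way. Per3 and Nr1d2 had r = 0.910 (permutation p = 3e-05, adjusted p = 0.00063), Cry2 and Nr1d1 had r = 0.890 (permutation p = 5e-05, adjusted p = 0.00063), and both passed without their 2 farthest libraries. Npas2 and Nr1d2 ran against each other with r = -0.870 (permutation p = 0.00011, adjusted p = 0.000707). Npas2 and Cry1 went together across libraries, with r = 0.803 (permutation p = 0.00091, adjusted p = 0.00341), and Clock and Cry2 were opposed, with r = -0.805 (permutation p = 0.00091, adjusted p = 0.00341). Without their 2 farthest libraries both of these pairs had an adjusted permutation p of 0.0512. The 2 REV-ERB genes, Nr1d1 and Nr1d2, had r = 0.753 with each other (permutation p = 0.00361, adjusted p = 0.00902), but r = 0.32 without dblGATA 4 and 5 (adjusted permutation p = 0.464), 0.0746 within WT and 0.948 within dblGATA. Without WT 4 and WT 6, the libraries rich in Rn18s, the relation of Dbp with Nr1d2 had r = 0.928 and that with Npas2 r = -0.847 (adjusted permutation p = 0.00427 and 0.00594).

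The ratio of an output gene to an activator gene gives 1 value per library. Dbp over Npas2, as a log2 ratio of CPM, ran from 0.917 in WT 2 to 2.79 in WT 6 among WT libraries and from -0.896 in dblGATA 5 to 1.94 in dblGATA 1 among dblGATA libraries. In dblGATA 5 and dblGATA 4 alone, Npas2 was above Dbp in CPM. Nr1d1 over Arntl ran from 0.782 to 2.19 in WT and from -0.144 to 1.65 in dblGATA, again with dblGATA 5 lowest and WT 6 highest. The genotypes overlapped in both ratios, with 4 dblGATA libraries (2 to 5) below all WT libraries in the first and 3 (2, 4 and 5) in the second.

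**Figure D4:**
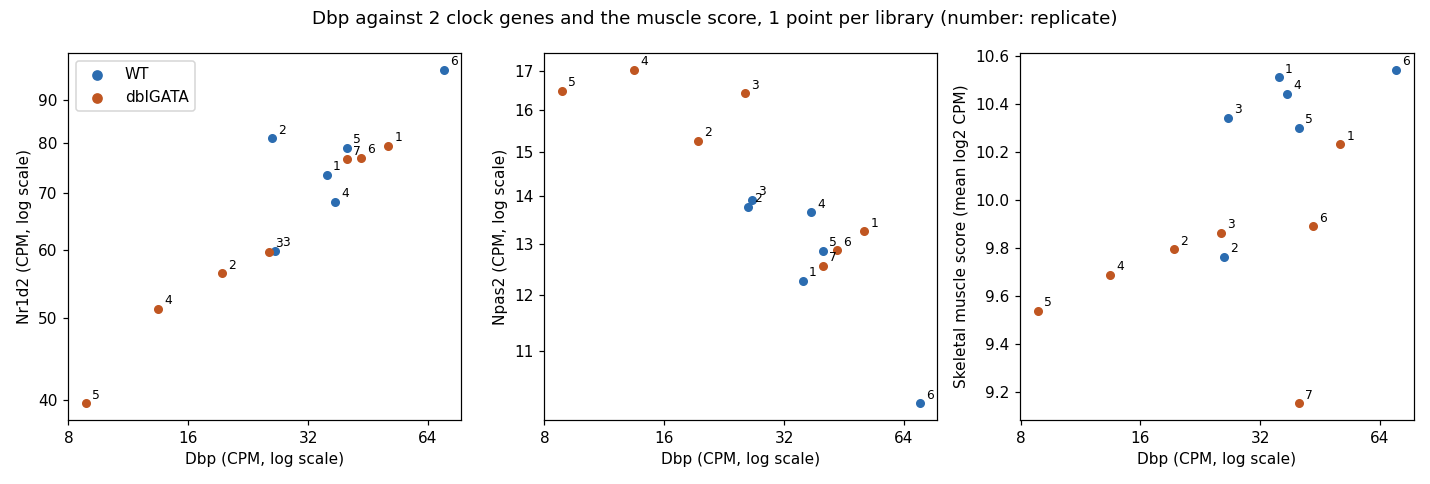
Nr1d2 (left, CPM on a log axis), Npas2 (centre, CPM on a log axis) and the skeletal muscle score (right, mean log2 CPM of its genes) on the y axes against Dbp (x axis, CPM on a log axis), 1 numbered point per library. Nr1d2 climbs and Npas2 descends with Dbp (r = 0.939 and -0.873), while the muscle score climbs more loosely (r = 0.522), with dblGATA 7 far below the rest.

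A fit over all genes was then made with genotype and the log2 level of Dbp as terms, to ask which genes followed Dbp among libraries of the same genotype. It was chosen after the relations above had been seen. Of 16598 genes besides Dbp, 4 had a slope on Dbp at an edgeR adjusted p under 0.05, or 0.0241%, and all 4 slopes were positive. Among the other 9 members 1 passed, Nr1d2, with a slope of 0.38 ± 0.0493 log2 units per log2 unit of Dbp (SE, edgeR adjusted p = 0.0232). Of the 22 other clock genes 2 passed, Bhlhe41, which encodes a repressor that binds E-boxes (0.47 ± 0.0640, SE, edgeR adjusted p = 0.0232), and Tef, a close relative of Dbp (0.31 ± 0.0444, SE, edgeR adjusted p = 0.0298). The remaining gene was Tcap, which encodes a protein of the sarcomere (0.54 ± 0.0749, SE, edgeR adjusted p = 0.0232). No gene passed when WT 6, dblGATA 1, dblGATA 2, dblGATA 5 or dblGATA 6 was left out, and 7 or 8 passed without WT 2, WT 5, dblGATA 4 or dblGATA 7.

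**Figure D5:**
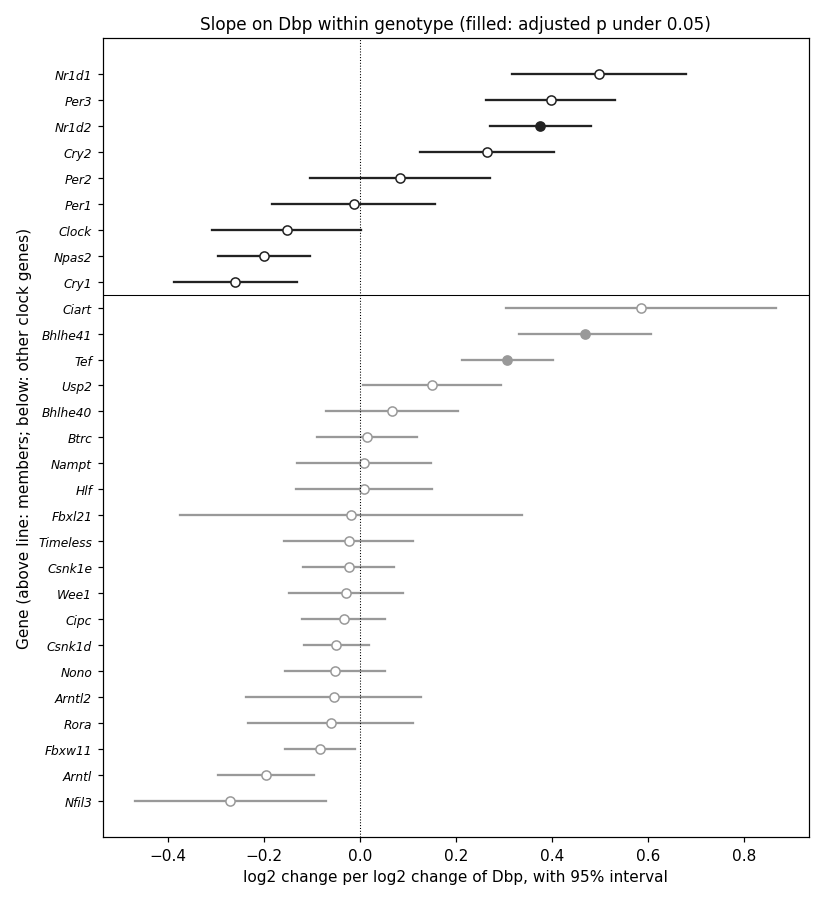
Slope on Dbp within genotype in log2 units per log2 unit of Dbp, with its 95% interval (x axis), for 9 members and 20 other clock genes (y axis, separated by the line), with filled points for an edgeR adjusted p under 0.05. Nr1d2, Bhlhe41 and Tef are filled, the intervals of Nr1d1, Per3, Cry2, Ciart and Usp2 also lie above 0, and those of Npas2, Cry1, Arntl, Nfil3 and Fbxw11 below it.

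Per3 and Nr1d1 came close with slopes of 0.40 and 0.50 (edgeR adjusted p = 0.0641 and 0.0759), and Cry2 had 0.26 (edgeR adjusted p = 0.268). Npas2 and Cry1 had negative slopes of -0.20 and -0.26, and Arntl, which is no member, had -0.20 (edgeR adjusted p = 0.220, 0.233 and 0.245). Clock had a slope of -0.15 (edgeR adjusted p = 0.558), and the intervals of Per1 and Per2 lay on both sides of 0, with slopes of -0.0122 and 0.0840. By likeness alone, measured as Pearson r with Dbp over the 13 libraries after the genotype means had been removed, the leading genes outside the members among 14368 compared were Efcc1 (0.931), Bhlhe41 (0.917), Tef (0.916), Tcap (0.910) and Hemk1 (0.900). Among the members, Nr1d2 at 0.930 lay within the range of these 5, and Per3 at 0.886 and Nr1d1 at 0.875 lay just below it. Clock was most like another set, led by Acvr2a (0.967), Brwd3 (0.959), Zdhhc21 (0.958), Cnot6l (0.958) and Lin7c (0.954), and its partner substitute Npas2 had 0.415 with it.

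Outside the 10 members, 25 symbols of other clock genes were listed. Of these, 23 were in the table (the other two symbols, Bmal1 and Bmal2, name genes that the table lists as Arntl and Arntl2), and 22 were tested. In dblGATA, 1 rose and 2 fell, against the 7.10% and 6.39% of all genes, with a median log2 fold change of 0.00164. Usp2, which encodes a deubiquitinase under clock control, fell, with a log2 change of -0.37 (SE 0.109, edgeR adjusted p = 0.0388). Nono, which encodes an RNA-binding partner of the PER proteins, rose, with a log2 change of 0.24 (SE 0.0698, edgeR adjusted p = 0.0366). Without WT 6 the edgeR adjusted p was 0.0919 for Usp2 and 0.0927 for Nono, without WT 4 it was 0.0812 and 0.0779, and without dblGATA 5 it was 0.0826 and 0.0747. Usp2 also lost the call without WT 1, WT 5 or dblGATA 2, 3, 4, 6 or 7, and Nono without dblGATA 3, 4 or 7 (edgeR adjusted p of at most 0.0798). The authors' deposited table also had both genes under 0.05, and in addition Csnk1d, a kinase of PER proteins, with a log2 fold change of 0.13 (adjusted p = 0.0392 there and 0.0837 by edgeR).

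The partner of Clock, Arntl, stood at 28.4 to 38.1 CPM in WT (median 35.3) and 32.9 to 45.9 CPM in dblGATA (median 42.7), a log2 change of 0.22 with an SE of 0.0965 (edgeR adjusted p = 0.128). Its 4 highest libraries were dblGATA 2 to 5, the same as for Npas2, and its lowest was WT 6. Tef had a log2 change of -0.34 with an SE of 0.13 (edgeR adjusted p = 0.0893). Nampt, an enzyme of NAD synthesis, Rora, an activator of the ROR family, and Bhlhe40, a relative of Bhlhe41, had log2 fold changes between -0.08 and 0.05, none of which passed.

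In bulk tissue, fewer cells of a type and less RNA per cell cannot be told apart. Genes of several cell types differed with genotype in the fit of all 13 libraries. None of these calls held without WT 4 and WT 6 (0 of 16930 genes called) or with Rn18s as a covariate (0 of 16599). Of 16 skeletal muscle genes 6 fell and 0 rose in dblGATA (median log2 fold change -0.55), their summed level running from 28340 to 52380 CPM in WT (median 41510) and from 20880 to 43060 CPM in dblGATA (median 26670). Mb, Myl1 and Mylpf, which encode myoglobin and myosin light chains, had the smallest p among them. Of 9 basal epithelium genes 7 rose and 0 fell (median 0.66), led by Col17a1, Itgb4 and Bnc1, with sums from 4721 to 6832 CPM in WT and from 6391 to 9704 CPM in dblGATA. Of 12 squamous differentiation genes 1, Tgm1, rose (median 0.41). Of 10 adipocyte genes 1, Lpl, fell (median -0.79), and of 8 smooth muscle genes 1, Des, fell (median -0.20). The log2 fold change of Des, -0.54, was near the median of the skeletal muscle genes. The other smooth muscle genes ran from -0.33 (Lmod1) to -0.08 (Myh11) and none passed, so the call of Des does not stand for that list.

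Dbp was compared with the mean log2 level of each of these 5 lists, and with Rn18s, Xist and the total counts, in 8 relations. The muscle score had r = 0.522 with Dbp (permutation p = 0.0676, adjusted p = 0.180) and rho = 0.566 (permutation p = 0.0475). It was 0.348 without dblGATA 4 and 5, 0.626 within WT and 0.297 within dblGATA. The basal and the squamous score both had r = -0.531 (permutation p = 0.0610 and 0.0626, adjusted p = 0.180 for both). None of the 8 passed, with adjusted permutation p of 0.455 for Rn18s, 0.518 for Xist and 0.696 for the total counts. With the muscle score as a covariate the log2 fold changes of the members came to -0.0421 for Clock, 0.0504 for Cry2, 0.0518 for Nr1d1 and 0.001 for Dbp, all of the opposite sign to those without it. The other members kept their sign, with -0.212 for Nr1d2, -0.185 for Per2, 0.149 for Npas2, 0.14 for Per1, 0.137 for Cry1 and -0.0675 for Per3. In that fit edgeR called 0 of all genes (1188 at an unadjusted p under 0.05). The part of muscle content in the members' levels was otherwise not tested.

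Genes that answer to signals known to set peripheral clocks were counted beside the 7.10% higher and 6.39% lower of all genes. Their calls too were lost without WT 4 and WT 6 or with Rn18s as a covariate, where edgeR called 0 of all genes. Of 12 glucocorticoid response genes 3 fell in dblGATA and 0 rose (median log2 fold change 0.0919). These were Zbtb16 (-0.65), Klf9 (-0.37) and Tsc22d3 (-0.37, edgeR adjusted p = 0.0195, 0.0288 and 0.0355), while Fkbp5, another target of the receptor, had -0.0381 (edgeR adjusted p = 0.879). Of 10 genes of feeding and fasting, Cpt1a rose by 0.43 and G0s2 fell by 0.67 on the log2 scale (edgeR adjusted p = 0.0137 and 0.0393). Of 8 genes of temperature and heat shock, Dnajb1 rose by 0.33 on the log2 scale (edgeR adjusted p = 0.0475), while Cirbp, an RNA-binding protein gene induced by cold, had -0.21 (edgeR adjusted p = 0.122). None of the genes of these 3 lists had a slope on Dbp that passed.

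In the authors' deposited pathway table, a row for circadian rhythm signalling had a -log10 p of 3.12 and a fraction of 0.194 of the pathway's molecules, and it listed 52 molecules. Of the 10 members, 1 was among those molecules, Cry2.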

How the data were processed

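RNA was extracted from tissue kept in an RNA preservative and made into stranded poly-A libraries, per the labels' protocols. The deposited table held whole numbers per gene and library, read here as the authors' estimated counts rounded before deposit. A second table held the authors' normalized signal. Log2 fold changes and p-values of the authors' own comparison, and a pathway table with a -log10 p and a fraction per row, were also deposited and are quoted only as the authors' values. The submitters' processing notes list DESeq2 1.34.0. Which aligner, counter and build were used is not given in the sources used here. No gene coordinates from the files are therefore printed, and exon lengths were matched by identifier without its version (19988 of 20054 genes).

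The members and lists were chosen with earlier results of these data known. Counts were filtered with filterByExpr (minimum count 10, minimum total 15), scaled by TMM and fitted with edgeR 4.0.16 under R 4.3.3 (robust quasi-likelihood), with Benjamini-Hochberg adjustment over 16599 genes and a threshold of 0.05. CPM used a prior count of 0.5 on the log scale. Exact permutation was used within each genotype, with n = 6 and 7. On simulated counts with known changes, the fit of dblGATA against WT recovered 94 of 100 genes changed by 1 on the log2 scale and 65 of 100 changed by 0.58, among 16523 genes. Named genes are all members, other clock genes that were called, the 6 others with the largest mean CPM, the 3 smallest p-values of each context list, and the 5 genes most like Dbp and Clock. Of the other clock genes, 2 that were tested and counted are not reported here. Arntl, Ciart, Nfil3 and the remaining genes named were chosen after their values were seen. Libraries of a group differed beyond sampling noise (chi-square per degree of freedom at least 58.4). Same-numbered libraries did not deviate together (correlations from -0.0896 to 0.0446), so the numbers were not taken as pairs. Alternatives were DESeq2 1.42.0 and limma-voom (limma 3.58.1), other scalings and filters, the authors' signal, the replicate number as a block, covariates, and libraries left out. Floors of 3 counts cover counting error only.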

Additional observations from a re-analysis of the deposited data

Results flagged for a closer look

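Values far from the rest of their genotype were looked for in the 10 members and in other clock genes named, over 28 sets of 1 gene in 1 genotype, and 3 were found. Chance alone gives about 1 in 20. Clock in WT 2 was at 167 CPM, with the gap to the next WT library taking 0.685 of the range of that genotype. Per3 in WT 6 was at 26.5 CPM, with a gap of 0.696 of the range. Dbp in WT 6 was at 70.0 CPM, with a gap of 0.683 of the range. WT 6 is also the library with the largest share of Rn18s, at 16.9% of its counts. Whether that share bears on Dbp or Per3 was not tested in that library, and across libraries Dbp and Rn18s had r = 0.357 (adjusted permutation p = 0.455).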

How the results depend on the processing

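For the members, 0 were called in either direction under every alternative run, except without WT 2 or dblGATA 1. Without WT 2, 1 was higher (Clock) and 1 lower (Cry2), beside 1928 higher and 1900 lower of all 16696 tested genes. Without dblGATA 1, 1 was lower (Cry2), beside 1411 of 16517 genes. The range over libraries left out was thus 0 to 1 in each direction. Calls among all genes numbered 2239, and 3536 with DESeq2, 880 with the replicate block (546 in the same 12 libraries without it), 1 with Dbp as a covariate, 357 to 3828 with 1 library left out, and 0 without WT 4 and WT 6 or with Rn18s or the muscle score as a covariate. The other clock genes called higher were 2 with DESeq2, 0 with upper-quartile scaling, the authors' signal, the Rn18s, muscle, Xist or Dbp covariate or without WT 4 and WT 6, and 0 to 3 with 1 library left out. Those called lower were 1 without WT 3 and WT 5, 0 with the replicate block, the Rn18s, muscle or Dbp covariate or without WT 4 and WT 6, and 0 to 4 with 1 library left out. Genes following Dbp numbered 0 to 8 with 1 library left out, members among them 0 to 3, and other clock genes 0 to 2. All 3 counts were 0 without WT 4 and WT 6. Signs turned with the muscle score as a covariate for Clock (-0.0421), Cry2 (0.0504), Nr1d1 (0.0518) and Dbp (0.001). The log2 fold change of Per1 was -0.0241 with upper-quartile scaling, -0.00888 with limma-voom, -0.011 with the authors' signal, -0.0822 and -0.0936 when Rn18s or Xist was a covariate, -0.0382 without WT 4 and WT 6, and -0.074 to 0.0635 with 1 library left out. The relation of Dbp and Per1 was 0.0937 without dblGATA 4 and 5. The causes were not tested. Every member stood at 5 CPM or more in every library, so the spread between libraries, not depth, limits these results.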

Other observations

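The genes next in order by their slope on Dbp, none of which passed, included transcripts of proteins that liver secretes. Mup3 had a slope of -3.24 (edgeR adjusted p = 0.0759), Serpina3k one of -3.08 (edgeR adjusted p = 0.123) and Apoa1 one of -2.43 (edgeR adjusted p = 0.220). They were picked out after their values were seen.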
